A study of Mus musculus with 12 samples.

Results

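Heat shock proteins and the chaperones that work with them were examined as a group of 79 genes among the 30743 gene symbols of a mouse fetal liver expression table. The members were chosen by symbol alone: Hsp90, Hspa, Hspb, Hspd, Hspe and Hsph genes, the Dnaja, Dnajb and Dnajc genes, the Cct genes and Tcp1, without the endoplasmic reticulum chaperones Hspa5, Hsp90b1 and Dnajb9. Whole livers came from male C57BL/6J fetuses at 15 ± 0.5 dpc, 6 from dams on the control diet (13.5 kcal% fat) and 6 from dams on the high-fat diet (HFD, 60 kcal% fat), each fed for 12 to 14 weeks. The measurement used for every gene was the authors' average log2 CPM, read counts scaled to a common library size, over all 12 libraries. It has no SD and no n of its own. Values of single livers and the columns of the authors' comparison between the diets were not used here, so no difference between HFD and control is given, and all levels below are those of both diets together.

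Chaperones bind proteins that are not yet folded, or have lost their fold, and let them reach their working shape. Hsp70 proteins take up short exposed stretches, J-domain proteins of the Dnaj classes bring clients to Hsp70 and start its ATP cycle, Hsp110 proteins exchange its nucleotide, and Hsp90 finishes kinases and receptors. The TRiC chaperonin is a double ring that encloses actin and tubulin, Hspd1 and Hspe1 do the same work in mitochondria, and small heat shock proteins hold unfolded chains. In mouse, many of these genes are switched on by heat shock factor 1, which binds repeated units of the bases GAA and their complement. Liver of this age makes both plasma proteins and red blood cells.

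To show which members carry such a binding sequence next to their start, the RefSeq promoter windows (GRCm38.p6, 250 bases before to 50 bases after each start) were searched for 3 alternating units, GAANNTTCNNGAA or, on the other strand, TTCNNGAANNTTC, in which N is any base. Of the 79 members, 65 had a window in that table, 84 windows in all. The members without one were Cct4, Dnajc11, Dnajc12, Dnajc18, Dnajc2, Dnajc22, Dnajc30, Dnajc5, Hsp90aa1, Hsp90ab1, Hspa13, Hspa8, Hspa9 and Hspb2. An exact match stood in 6 of the 84 windows (7.14%), beside 198 of all 32851 windows (0.603%). These 6 windows belonged to 4 genes, Hspd1, Hspe1, Dnajb6 and Hsph1. The matches of the 3 genes that hold one before a RefSeq start are shown because they are the exact elements of the group, with the bases of the units in capitals.
Hspd1 at chr1:55088053-55088082, minus strand: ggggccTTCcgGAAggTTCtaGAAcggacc
Hspe1 at chr1:55088053-55088082, plus strand: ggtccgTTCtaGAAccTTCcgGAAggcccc
Dnajb6 at chr5:29735846-29735870, plus strand: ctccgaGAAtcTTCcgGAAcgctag

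Hspd1 and Hspe1, which encode the ring and the lid of the mitochondrial chaperonin, are read from opposite strands of chromosome 1, and the RefSeq starts behind their windows lie 216 bases apart. The first 2 sequences are the same stretch of DNA read from either strand. It holds 4 alternating units in a row, so that 2 overlapping matches were found, beginning at -144 and -139 from the start of Hspd1 and at -89 and -84 from that of Hspe1. Dnajb6, a J-domain protein that keeps polyglutamine proteins from aggregating, has a pair of listed starts that share 1 match, which begins at -46 and -127 from them. All positions are from RefSeq starts. In GENCODE M21 longer transcripts of Hspd1 and Dnajb6 begin further upstream, so that the element of each also lies in the 5′ UTR of one such transcript. The element of Dnajb6 also lies in the coding sequence of Gm5129, a gene on the opposite strand. The match of Hsph1, an Hsp110 protein, began at 16 and 37 from its starts, within the transcript. The 6 windows thus hold 3 separate stretches of DNA.

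**Figure D1:**
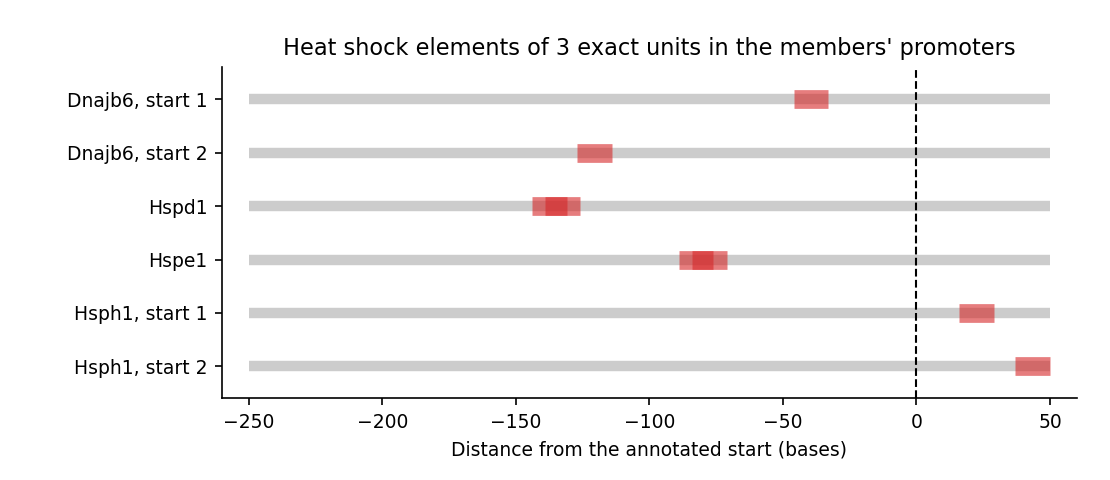
Positions of exact heat shock elements in the promoter windows of the 4 genes that hold one, by distance in bases from the annotated start (dashed line). Grey bars are the 300-base windows and red blocks the elements, darker where 2 overlap. The elements of Hspd1, Hspe1 and Dnajb6 lie before the RefSeq start and those of Hsph1 after it.

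With 1 of the 9 fixed bases allowed to differ, 21 of the 84 windows matched (25.0%), against 7.22% of all windows. The 18 genes concerned were the 4 above and Cct2, Cct5, Cct6a, Cct8l1, Dnaja1, Dnaja4, Dnajb4, Dnajc27, Dnajc8, Hspa1a, Hspa1b, Hspb1, Hspb3 and Hspb6. The stretches of the heat-inducible Hsp70 genes Hspa1a and Hspa1b, of the small heat shock protein gene Hspb1, of the J-domain gene Dnaja1 and of 2 TRiC genes are shown for comparison, with the matching bases in capitals.
Hspa1a at chr17:34972247-34972271, minus strand: cgaaacTgCtgGAAgaTTCctggcc
Hspa1b at chr17:34959329-34959353, minus strand: cgaaacTgCtgGAAgaTTCctggcc
Hspb1 at chr5:135887796-135887820, plus strand: acaagaGAAgtTTCcaGAtgggggc
Dnaja1 at chr4:40722333-40722357, plus strand: aaaagccTCtaGAAaaTTCtacgag
Cct2 at chr10:117063399-117063423, minus strand: agtgaaGAAgtTTCtaGcAggacct
Cct5 at chr15:31601862-31601886, minus strand: ggccgaTTCcaGAAgcTaCtctgcg

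The stretches of Hspa1a and Hspa1b are the same in every base. In GENCODE M21 some of these stretches also lie within transcripts. That of Cct2 lies within transcripts of Cct2 itself. That of Dnaja1 lies in an exon of a Dnaja1 transcript and of the noncoding Gm6297 on the opposite strand. That of Cct5 lies in an exon of Fam173b, also on the opposite strand. A match is a description of these letters and not a measured binding site. Genes with and without an exact element both covered a wide range of levels. The 4 genes with one were all above 1 CPM, from 1.19 to 9.39 average log2 CPM, and of the 61 with a window and no exact element 42 were above 1 CPM and 4 were at the lowest value.

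The tissue label was checked against markers in the same average. Of 5 hepatocyte markers, Alb, Afp, Apoa1 and Ttr lay between 2590 and 63314 CPM, and Serpina1a was listed at 0.184 CPM. Among erythroid markers, Klf1 had 692 and Gata1 367 CPM, and Alas2 was listed at 0.704 CPM. All 4 skeletal muscle markers were above 1 CPM (10.3 to 55.0 CPM), as were 2 of 3 pancreas markers (Cpa1 at 8.04 and Cel at 1.80 CPM, with Prss1 at 0.284 CPM). None of 4 testis markers reached 1 CPM. The part of these tissues in the levels of the members was not tested. In whole tissue, fewer cells of a type and less RNA per cell cannot be told apart.

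Most chaperone genes had reads, and a few held most of the listed CPM. Of the 79 members, 75 (94.9%) were above the lowest value of the table, against 63.9% of all rows and 77.6% of the 18719 rows matched to a protein-coding gene. Above 1 CPM were 57 members (72.2%), against 33.1% of all rows and 45.1% of protein-coding rows. Above 100 CPM were 18 members (22.8%), against 5.31% and 8.06%. The median of the members was 2.54 average log2 CPM, at percentile 67.0 of all rows with reads. On the scale of CPM per kilobase of exons it lay at percentile 58.9. Only rows with a GENCODE length have a level per kilobase, so these percentiles do not differ by the scale alone. Together the members took 1.05% of the CPM of the table, 10587 CPM. Hsp90ab1 alone supplied 31.1% of this sum, the top 5 (Hsp90ab1, Hspa9, Cct5, Cct8 and Cct2) 61.2% and the top 10 83.1%.

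**Figure D2:**
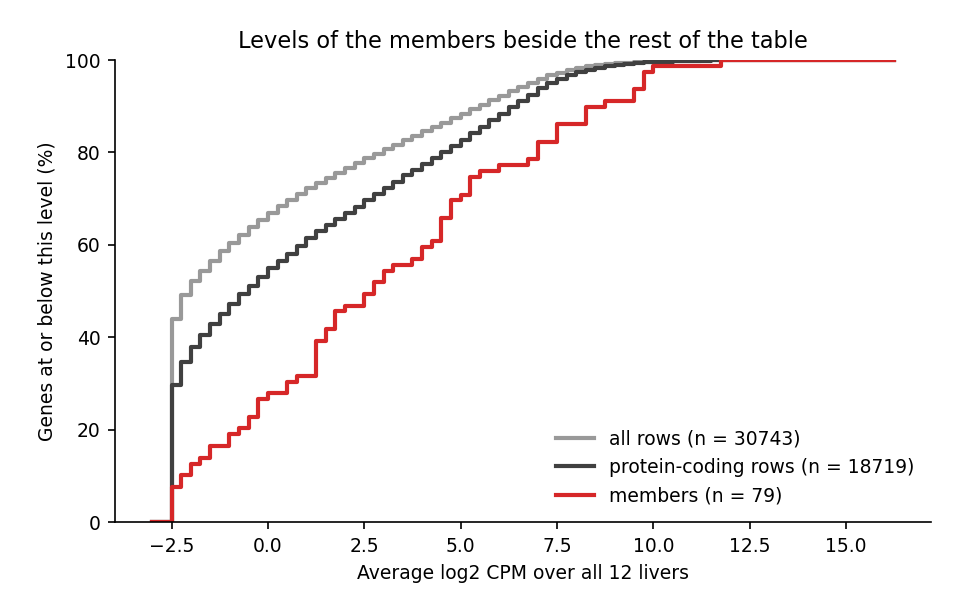
Share of genes (percent, vertical axis) at or below each average log2 CPM over all 12 livers (horizontal axis), for the 79 members, the 18719 protein-coding rows and all 30743 rows. The curve of the members lies below the others from the lowest value of the table up to their highest member, and 72.2% of members were above 1 CPM against 45.1% and 33.1%.

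Levels were compared between genes as CPM per kilobase of exons (GENCODE M21), in which the 8 families differed widely. TRiC summed to 1106 and Hsp90 to 1099 CPM per kilobase, followed by the mitochondrial chaperonin with 368, the Dnajc class with 309 and Hsp70 with Hsp110 with 254. The Dnaja class summed to 92.3, the Dnajb class to 52.6 and the Hspb genes to 13.1 CPM per kilobase. The families hold from 2 genes (Hsp90 and the mitochondrial chaperonin) to 26 (Dnajc). Their order is that of the listed values, which include low ones for Hspa8, Hsp90aa1 and Tcp1. Whether reads of such genes are missing was not tested. Per kilobase of coding sequence the order in part turned, with the Dnajc class (1038) above the mitochondrial chaperonin (941).

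**Figure D3:**
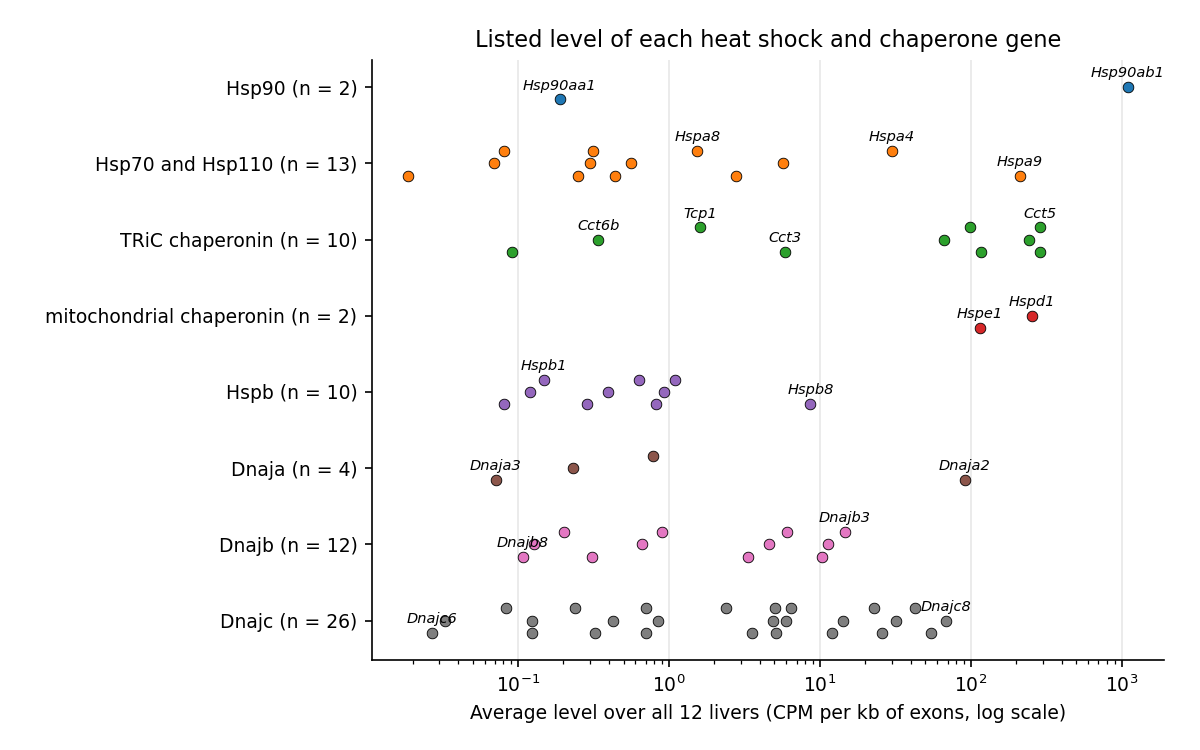
Average level over all 12 livers of each member, in CPM per kilobase of exons on a log axis, by family, with 1 point for a gene. Levels run from Hsp90ab1 at 1098 to Hspa12a at 0.0187 CPM per kilobase, and the 4 genes without reads are drawn at the lowest value of the table divided by their length.

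The 2 cytosolic Hsp90 genes differed widely in listed level. Hsp90ab1, the constitutive form, on chromosome 17 of GRCm38 from 45567775 to 45573271, had 3294 CPM (11.69 average log2 CPM), above 99.9% of the rows with reads. Hsp90aa1, the form that stress raises, on chromosome 12 from 110690605 to 110702728, was listed at 0.741 CPM, above 44.1% of those rows. Per kilobase the first was 5829 times the second. The longest GENCODE transcripts of the pair align at 76.3% identity and share no stretch of 50 bases. Only these transcripts were compared, and whether reads of Hsp90aa1 were lost in counting was not tested. Hsp90b1, the reticulum form that the choice of members leaves out, had 1362 CPM.

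Among 13 Hsp70 and Hsp110 genes, Hspa9 supplied most of the listed CPM. Hspa9, the Hsp70 of mitochondria, had 912 CPM and 212 CPM per kilobase. Hspa4, an Hsp110 protein of the cytosol, followed with 165 CPM and 29.9 CPM per kilobase. Hspa8, the constitutive cytosolic Hsp70 known as one of the most abundant proteins of growing cells, was listed at 6.63 CPM and 1.54 CPM per kilobase, so that Hspa9 was 137 times higher per kilobase. Hspa12b, a distant relative known from endothelium, had 20.9 CPM. Hspa1l, known from testis, had 6.90 CPM, and its exons overlap those of 1 other gene.

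The remaining members of this family were low. Hspa4l had 2.93, Hsph1 2.27 and Hspa14, an Hsp70 of the ribosome, 2.27 CPM. Per kilobase, Hspa4 was 120 times Hspa4l and 95.6 times Hsph1, its Hsp110 relatives, and per coding kilobase 56.1 and 74.1 times. Hspa13 had 0.552, Hspa2 0.184 and Hspa12a 0.172 CPM. The heat-inducible pair was also low, with Hspa1b at 1.23 and Hspa1a at 0.895 CPM. Hspa1a, Hspa1b and Hspa1l lie next to each other on chromosome 17, where Hspa1a and Hspa1l begin 547 bases apart on opposite strands and Hspa1a and Hspa1b begin 12918 bases apart. The transcripts of Hspa1a and Hspa1b are identical in 99.3% of 2197 aligned bases, and 58.8% of the 50-base stretches of Hspa1a occur in Hspa1b, so their separate values are uncertain. For Hspa1a against Hspa1l these shares were 83.5% and 7.95%.

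The 8 ubiquitous TRiC genes encode 1 subunit each of a ring that holds a single copy of every subunit, and 6 of them lay within a 4.33-fold range. Per kilobase of exons, Cct2 and Cct5 had 286 each, Cct8 had 243, Cct6a had 117, Cct7 had 98.7 and Cct4 had 66.1 CPM. Cct3 and Tcp1, which is the first subunit of the ring, stood apart with 5.90 and 1.60 CPM per kilobase, so that the range over all 8 was 179-fold. As CPM, Cct3 had 37.6 and Tcp1 8.05, against 278 to 791 in the other 6. Leaving out the pair was chosen after their values were seen. Cct6b, the testis form of Cct6a, had 0.636 CPM, and Cct6a was 344 times higher per kilobase. The related Cct8l1 had 0.178 CPM.

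**Figure D4:**
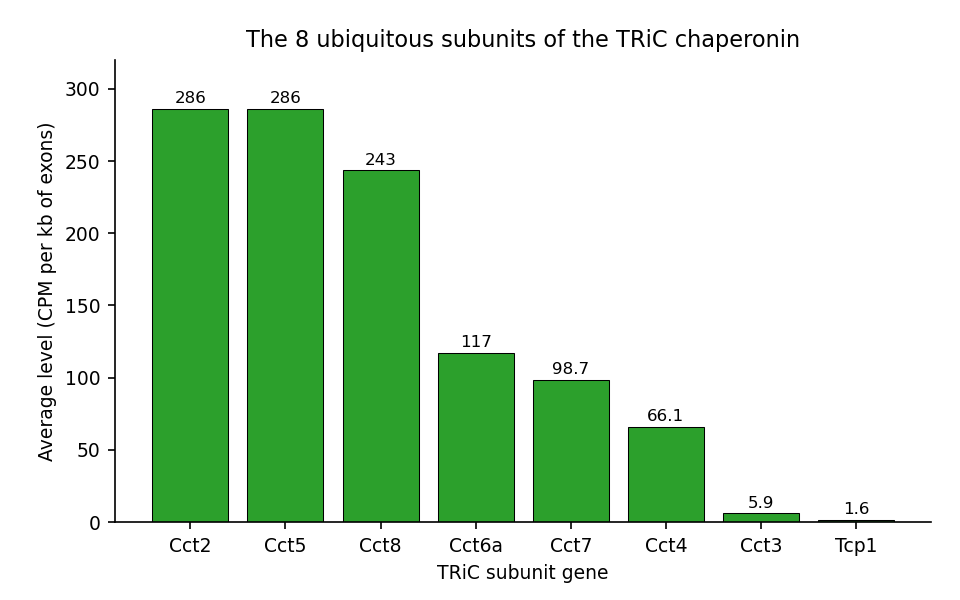
Average level over all 12 livers of the 8 ubiquitous TRiC subunit genes, as bars in CPM per kilobase of exons from 0. The 6 genes on the left lie between 66.1 and 286, Cct3 at 5.90 and Tcp1 at 1.60.

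In mitochondria, Hspd1 had 669 and Hspe1 169 CPM, or 253 and 114 CPM per kilobase. Per kilobase of exons Hspd1 was 2.21 times Hspe1, and Hspa9, the mitochondrial Hsp70, lay between them with 212 CPM per kilobase. Per coding kilobase the order of the chaperonin pair turned, and Hspd1 was 0.706 times Hspe1. Although the group is named for the cytosol, it also holds genes of other compartments. Examples are these 3 genes and Dnaja3 in mitochondria, and Dnajb11 and Dnajc3 in the endoplasmic reticulum. The members were not sorted by compartment, so others may lie outside the cytosol too.

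The 10 genes with symbols beginning Hspb were the lowest family. Hspb8, which works with Bag3 in clearing misfolded proteins, was the one above 10 CPM (16.8 CPM, 8.64 CPM per kilobase). Hspbap1 had 2.68, Hspb7 2.29 and Hspb6 2.12 CPM. Under 1 CPM were Hspb9 (0.791 CPM), Hspb3 (0.495 CPM), Hspb2 (0.328 CPM) and Hspb11 (0.247 CPM). Hspb1, the small heat shock protein of most tissues, and Hspbp1, a nucleotide exchange factor of Hsp70, were listed at the lowest value of the table. Hspb11, Hspbap1 and Hspbp1 are not small heat shock proteins in spite of their symbols. The alpha crystallins were also low, with Cryaa at the lowest value and Cryab at 0.165 CPM.

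Among the J-domain genes, Dnaja2, a general Hsp70 partner of the cytosol, had the highest level per kilobase of exons, 91.3 CPM per kilobase (271 CPM), while per coding kilobase Dnajc8 (230.1) stood above it (219.6). Its relatives Dnaja4 (2.82 CPM), Dnaja1 (2.00 CPM) and the mitochondrial Dnaja3 (0.279 CPM) were far lower, and Dnaja2 was 394 times Dnaja1 per kilobase of exons and 131 times per coding kilobase. In the Dnajb class the highest levels per kilobase of exons were those of Dnajb3 (14.6), Dnajb13 (11.4), Dnajb11 (10.3), Dnajb1 (6.10) and Dnajb2 (4.57 CPM per kilobase). Per coding kilobase Dnajb13 (32.7) and Dnajb11 (31.1) stood above Dnajb3 (21.2). Dnajb3 is known from testis and Dnajb13 from sperm and cilia. Exons of Dnajb13 overlap those of 1 other gene in GENCODE M21, so its level is uncertain where reads were shared. Dnajb1 is the classical heat-inducible Hsp40 and had 19.5 CPM. Dnajb8, known from testis, was listed at the lowest value.

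In the Dnajc class, 22 of 26 genes were above 1 CPM. Dnajc8, a partner of splicing factors, led per kilobase with 68.4, followed by Dnajc3, a reticulum protein, with 54.1, Dnajc9, a histone chaperone, with 42.7, Dnajc22 with 32.1 and Dnajc7, which binds both Hsp70 and Hsp90, with 25.9 CPM per kilobase. These levels are per kilobase of exons. Per coding kilobase Dnajc22 (58.4) stood below Dnajc7 (84.8) and Dnajc11 (76.3). Dnajc4 was listed at the lowest value.

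Most genes of Hsp90 co-chaperones, Hsp70 co-chaperones and prefoldin were above 1 CPM, a level that 45.1% of protein-coding rows passed. Of TRiC co-factors 2 of 4 and of heat shock factors 1 of 4 passed it, near or below that share. Of 17 Hsp90 co-chaperones 13 were above 1 CPM, with Fkbp4 at 625, Stip1 (which links Hsp70 to Hsp90) at 327, Tomm70a at 324 and Cdc37 (for kinases) at 231 CPM, and of the muscle form Unc45b there was 0.159 CPM. Of 12 Hsp70 co-chaperones 11 were above 1 CPM, with St13 at 274, Bag1 at 246 and Grpel1, the mitochondrial exchange factor, at 166 CPM, and Hyou1 at 0.267 CPM. Of 6 prefoldin genes, 5 had a row, of which 4 lay between 67.7 and 140 CPM and Pfdn4 at the lowest value. Among 4 TRiC co-factors, Pdcl had 57.6 and Pdcl3 55.8 CPM, with Txndc9 at 0.242 CPM and Pdcl2 at the lowest value. Of the heat shock factors, Hsf2 had 41.3 CPM and Hsf1, the main factor of the response, 0.570 CPM, with Hsf5 at 0.267 CPM and Hsf4 at the lowest value.

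Median listed levels fell with the number of mRNA isoforms. Of the members, 45 have 1 curated RefSeq mRNA, 20 have 2 and 14 have 3 or more. Their median average log2 CPM was 4.39, 1.18 and 1.09, and the share above 100 CPM was 31.1%, 15.0% and 7.14%. In protein-coding rows the upper quartile fell in the same order, from 4.71 to 2.24 and 1.48 average log2 CPM. Their share above 100 CPM was 11.0%, 4.89% and 2.57%. The median of these rows fell from -0.256 to -0.717 and -0.996. Their lower quartile, near the lowest value of the table, rose from -2.66 to -2.60 and -2.54. Among the genes named above, Hspa8, Tcp1, Hsph1 and Hspbp1 have 2 such mRNAs and Dnaja1 has 3, but Hsp90aa1, Cct3 and Hspb1 have 1 and were low, and Hspd1, Cct2 and Cct5 have 2 and were high. The part of the isoform number in the levels of single members was not tested. Exons of 30 members overlap those of another gene in GENCODE M21. Low members such as Hspa8, Tcp1 and Dnaja1 have 3 such genes each. Among high members, Cct6a and Dnajc7 have 2 each, and Hspd1, Hspe1, Cct7 and Cct8 have 1 each. The levels of all 30 are uncertain where reads were shared. Their median was 2.29 average log2 CPM, against 3.61 in the 49 members without overlap, but 24 of the 30 were above 1 CPM against 33 of the 49. Hsp90aa1, Cct3 and Hspb1 are among the latter. A low listed value is therefore given as a value of the table, not as absence of the transcript.

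**Figure D5:**
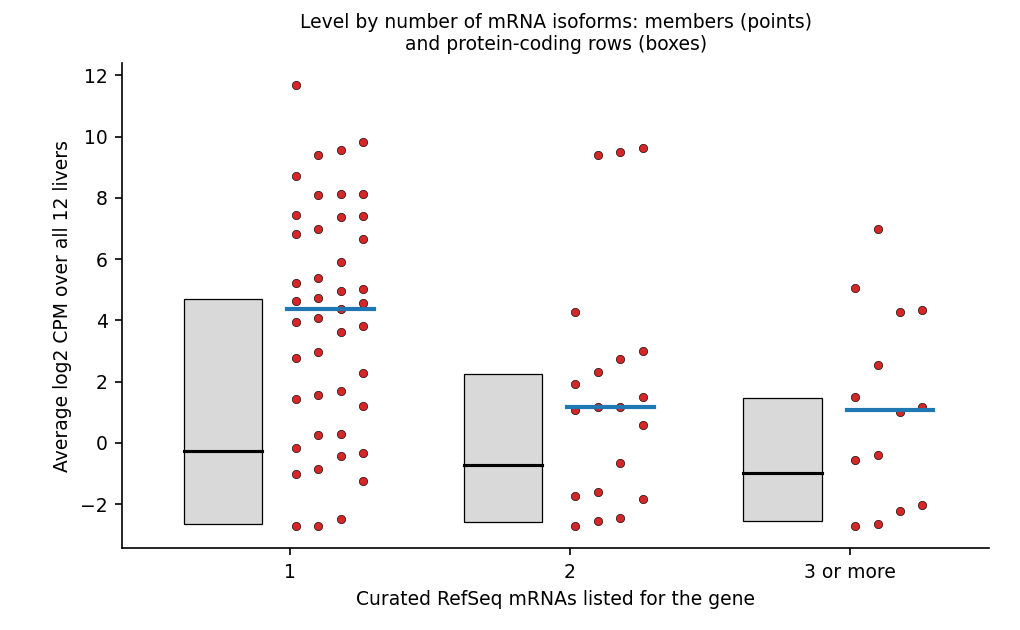
Average log2 CPM over all 12 livers by the number of curated RefSeq mRNAs of the gene. Red points are the members (45, 20 and 14 genes) with their median as a blue line, and grey boxes span the quartiles of protein-coding rows with the median in black. The medians of the members are 4.39, 1.18 and 1.09.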

How the data were processed

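PolyA-selected RNA of 12 fetal livers was sequenced. Per the paper's methods and the submitters' processing notes, the authors used fastqc for read quality, Subread 1.3.6-p1 for alignment (mm10), biomaRt for annotation and edgeR for the diet contrast. The notes also name cutadapt 1.2.1. The read counter, normalization and edgeR version are not given in the sources used here. The deposited table has 30743 rows. Its average log2 CPM over all libraries, the column used, stands in 2 columns with the same value in all 30743 rows. Its other columns hold the authors' fold changes, p-values and adjusted p-values of HFD against control with a common and a tagwise dispersion and were not used. The lowest value, -2.71 (0.152 CPM), is shared by 11091 rows without reads, so levels near it reflect the offset added to counts. The depth of each library is unknown, so no interval is given.

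CPM was 2 to the power of the deposited log2 value. Exon and coding lengths and positions came from GENCODE M21 (GRCm38, the build of mm10), matched by symbol to 21063 rows and all 79 members, with coding length from GENCODE in place of the planned RefSeq proteins, and isoform numbers and promoters from RefSeq (GRCm38.p6). GENCODE M21 gives Cct6a no coding length. Genes named were all members outside the Dnaj classes, the 5 highest of each Dnaj class per kilobase of exons and members without reads. Lists of partners and markers were named too. Dnajb6 and further Dnaj genes were named for a motif match, a missing promoter window or their level per coding kilobase. Some listed genes are not reported here. Members and lists were chosen with earlier results of these data known. The motif search found every planted element in simulated sequence. A test of HFD against control and the HPD motif of J-domain proteins were planned and not run, for want here of values of single livers and of protein sequences. Python 3.11.15, pandas 2.3.3, numpy 2.4.6 and Biopython 1.88 were used.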

Additional observations from a re-analysis of the deposited data

How the results depend on the processing

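The number of members detected was 75, and 57 with 1 CPM required. The percentile of their median level was 67.0 among all rows with reads, 57.3 among rows and members above 1 CPM and 58.9 per kilobase of exons. Only rows with a GENCODE length have a level per kilobase. With coding length in place of exon length, family sums rose: Hsp70 and Hsp110 to 536, TRiC (without Cct6a, which has no coding length) to 2011, the mitochondrial chaperonin to 941, Hspb to 43.3, Dnaja to 224, Dnajb to 163 and Dnajc to 1038 CPM per kilobase, while Hsp90 (1517) stayed within 1.5 times. The range of the ubiquitous TRiC genes was 101-fold per coding kilobase over 7 genes and 4.33-fold per kilobase of exons without Tcp1 and Cct3, a choice made after seeing the data. The share of windows with a heat shock element was 25.0% with 1 mismatch, and also 25.0% (15.1% of all windows) with 2 exact units (GAANNTTC or TTCNNGAA). No paired analysis was possible because the level analysed is an average over all 12 livers. The planned edgeR and DESeq2 alternatives and the HPD alternative were not run. A pooled average carries no spread between livers, so the order of genes of similar level is not known.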

Other observations

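Genes that every cell uses fell on both sides in the same average. In a list of such genes drawn up after values were seen, Actb (2581 CPM), Eef1a1 (5951 CPM), Eef2 (3805 CPM), Rplp0 (2046 CPM), Rpl4 (2441 CPM), Tubb5 (2767 CPM), Ncl (2265 CPM), Calr (1574 CPM) and Pdia3 (1200 CPM) were all high. The polyubiquitin gene Ubb and the reticulum chaperone Canx were listed at the lowest value, as was Hspa5, the reticulum Hsp70. The glycolytic enzymes Gapdh and Eno1 were listed at 5.20 and 2.37 CPM, Ldha at 0.786, Hnrnpa1 at 0.414 and Ppia at 0.165 CPM. The low values of Hsp90aa1 (0.741 CPM), Hspa8 (6.63 CPM), Tcp1 (8.05 CPM) and Hspb1 (the lowest value) stand in the same table.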
